A study of Homo sapiens with 6 samples.

Results

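The genes described here encode the machinery of synaptic vesicles and of regulated exocytosis. They were 47 symbols in 7 roles, chosen by name, but with earlier results of these data known. Of these, 46 had a row among the 17177 genes of the table. The expression of *SLC18A2* was not analysed here. The genes were followed in NCI-H660, an established cell line from a neuroendocrine prostate cancer, which grows with features of nerve and hormone-secreting cells. Wild-type cells of this line had been given either PBS, the control, or pyrvinium pamoate (PP), a drug against pinworm, and RNA was taken on day 3. Each treatment had 3 libraries and no other allele or agent was named for either of them. A single cell line stands behind both groups, and the PP concentration for this experiment was not given in the sources used here. The study calls the samples independent, but the sources do not say how the cultures were kept apart, so the P values measure the spread between these libraries, which may be technical. The question was how the transcripts of this machinery differed between PP and PBS.

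Cells that release hormones, peptides or transmitters on demand keep them in vesicles that wait near the plasma membrane. RAB GTPases of the RAB3 and RAB27 groups bring vesicles to their release sites, where large scaffold proteins of the active zone (RIM, Bassoon, Piccolo) and priming factors (MUNC13, CAPS) prepare them. SNARE proteins on the vesicle (VAMP) and on the plasma membrane (syntaxin, SNAP25) then zip together, helped by MUNC18 proteins and held ready by complexins, until a synaptotagmin on the vesicle senses calcium and fusion follows. In neuroendocrine tumours several of these proteins, synaptophysin above all, serve as stains that show the secretory phenotype.

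Levels are given as FPKM, fragments per kilobase of gene and per fixed number of mapped fragments, so that genes of different length can be set side by side. Whole counts could be read back from the steps of the FPKM values in 95.5% of genes, and they came to between 29064154 and 32481049 per library. Within a treatment the libraries differed by a chi-square per degree of freedom of 3.36 to 6.91 over genes, against 144 to 164 between treatments, so no library was a copy of another. Each difference below is the PP mean less the PBS mean of log2(FPKM + 1), a scale that makes the change of weakly expressed genes look smaller. It was tested with limma over the 11726 genes whose mean FPKM reached 1, and a gene was called higher or lower at a Benjamini-Hochberg adjusted p under 0.05. RNA from bulk culture cannot tell fewer cells of a kind from less RNA per cell.

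The cells carried most of the machinery at sizeable levels. Of the 46 genes, 38 had a mean FPKM of at least 1 and 22 of at least 10. The median of the mean FPKM was 13.0 over the 38 genes, against 11.1 over all genes tested. *STXBP2*, *NAPA* and *SYNGR2* stood highest of the 46 in both treatments. Below a mean of 1 lay *SYT5*, *SYN3*, *RAB3C*, *RAB27B* and *RIMS1*, which were taken from a second fit over the 13771 genes whose mean FPKM reached 0.1. *SYT11*, *SYN2* and *SLC18A1* were lower still and were not tested. *SLC18A1*, a monoamine transporter of secretory vesicles, was listed at 0 in 5 of 6 libraries and at 0.0115 FPKM in PP replicate 2. *SYN2*, a synapsin, was listed at 0 except for 0.00529 FPKM in PBS replicate 3.

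The machinery did not move as a block. With PP, 9 of the 38 genes were higher (23.7%) and 17 were lower (44.7%), while 12 were not called. Over all genes tested, 38.1% were called higher and 34.4% lower, so calls were common in this comparison and the share of higher genes lay below the background and that of lower genes above it. The median log2 fold change was -0.11 over the 38 genes and 0.02 over all genes tested, and the median of its size was 0.30 against 0.27. All 3 PP libraries lay above all 3 PBS libraries in 11 of the 38 genes, against 39.5% of all genes, and below them in 18, against 35.5%. The stricter cutoff of the study's methods, a log2 fold change above 1 or below -1 at an unadjusted P under 0.001, was passed upward by *SYT4*, where 2.24% of all genes passed it, and downward by *CPLX2* and *RPH3AL*, where 2.93% did. Among the 5 genes of the second fit, *SYN3*, *RAB3C*, *RAB27B* and *RIMS1* were lower, against 32.4% of the genes in that fit.

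**Figure D1:**
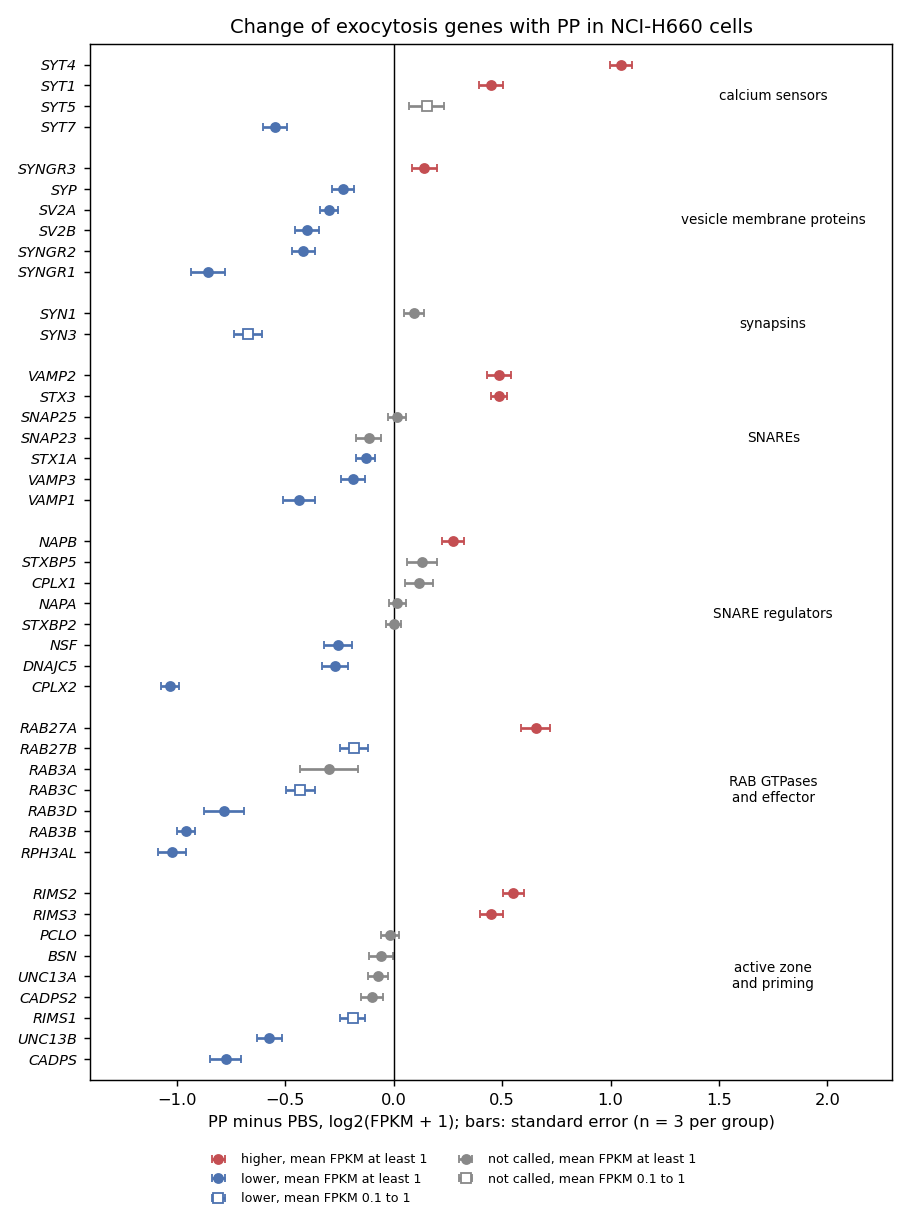
Log2 fold change (PP less PBS in log2(FPKM + 1), horizontal axis) of the 43 tested exocytosis genes, grouped by role, where points are limma estimates, bars are standard errors and n = 3 libraries per treatment. Red points are genes called higher, blue ones lower and grey ones not called, and open squares mark genes from the second fit; *SYT4* lies alone near 1.05 at the right, with *CPLX2* and *RPH3AL* near -1.03 and -1.02 at the left.

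Promoter sequence was looked at for motifs with a known part in nerve and stress-responsive genes. RefSeq windows on GRCh38.p14, from 250 bases before to 50 bases after a start site, were found for 38 of the 47 symbols (55 windows) and were searched on both strands. The left part of RE1, the element bound by the repressor REST that keeps nerve genes silent elsewhere, was searched as TTCAGCACC and was held by windows of *SYN1* and *UNC13A* and by 0.376% of all 35116 windows. The right part, GGACAGCG, was held by *UNC13A* and *BSN* and by 1.63% of all windows. The cyclic AMP response element TGACGTCA was held by *SYN1* and *SLC18A2* and by 1.85% of all windows, and TTGCATCA, an element of C/EBP and ATF factors, was held by no window of these genes and by 0.866% of all windows. A match is a description of the letters and not a site of binding. Of the genes with a match and a test, *SYN1*, *UNC13A* and *BSN* were all not called. The sequences below are the 250 bases before the start of *SYN1*, shown for its 2 matches, the 25 bases of *UNC13A* around its start that hold both parts of RE1 on the opposite strand, and the 250 bases before *SYT4* and *CPLX2*, which had the highest and the lowest log2 fold change of the 38 genes and held none of the 4 motifs. Each is written 5′ to 3′ on the strand of the gene, and capitals mark the matches.
SYN1, chrX:47619858-47620107, minus strand: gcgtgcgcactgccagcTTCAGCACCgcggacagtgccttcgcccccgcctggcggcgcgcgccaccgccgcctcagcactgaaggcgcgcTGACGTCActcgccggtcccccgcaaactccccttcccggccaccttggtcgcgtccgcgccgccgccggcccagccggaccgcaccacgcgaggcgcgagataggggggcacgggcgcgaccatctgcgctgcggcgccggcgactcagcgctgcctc
UNC13A, chr19:17688340-17688364, minus strand: CGCTGTCCgcgcccccGGTGCTGAA
SYT4, chr18:43277491-43277740, minus strand: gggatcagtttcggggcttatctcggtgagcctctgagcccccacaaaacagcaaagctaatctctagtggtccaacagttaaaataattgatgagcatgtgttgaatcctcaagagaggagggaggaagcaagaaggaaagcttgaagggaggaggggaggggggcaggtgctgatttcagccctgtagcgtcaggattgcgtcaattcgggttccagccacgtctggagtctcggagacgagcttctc
CPLX2, chr5:175796283-175796532, plus strand: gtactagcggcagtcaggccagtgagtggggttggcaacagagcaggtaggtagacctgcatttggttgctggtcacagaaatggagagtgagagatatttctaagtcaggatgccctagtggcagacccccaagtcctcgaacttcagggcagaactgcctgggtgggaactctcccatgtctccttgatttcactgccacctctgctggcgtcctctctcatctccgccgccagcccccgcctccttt
In *SYN1* the left part of RE1 began 233 bases before the start and the palindromic cyclic AMP element 159 bases before it. Shortly after that left part *SYN1* reads ggacagtg, which differs from GGACAGCG only by t in place of C. The printed bases of *SYT4* hold ttgcgtca, which differs from TTGCATCA only by g in place of A. The search took exact matches only, so it counted neither of these near matches, and near matches in other windows were not counted. The motifs did not overlap in *SYN1* or *UNC13A*.

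The calcium sensors were the role with the highest ratio of summed FPKM between PP and PBS. That summed FPKM was 26.0 to 26.6 in the PBS libraries and 36.5 to 39.6 in the PP libraries. *SYT4* encodes a synaptotagmin of dense-core and synaptic vesicles whose calcium binding differs from that of *SYT1*. Its FPKM was 8.74, 8.53 and 8.53 in PBS replicates 1, 2 and 3 and 17.9, 18.7 and 20.0 in PP replicates 1, 2 and 3. The lowest PP library was above the highest PBS library by a wide gap. The fold was 2.20 on the FPKM scale, and the log2 fold change of 1.05 (standard error 0.050, limma's adjusted p = 3.62e-08) lay at 1.01 to 1.08 when each library was left out in turn. *SYT1*, the fast calcium sensor of synaptic vesicles, rose from 10.3, 10.3 and 9.92 FPKM to 13.2, 15.3 and 14.3 FPKM, with a log2 fold change of 0.45 (standard error 0.056, adjusted p = 4.41e-05). *SYT7*, a slower sensor with high calcium affinity that acts in hormone release, went the other way. It fell from 6.36, 6.79 and 6.60 FPKM to 4.22, 3.98 and 4.35 FPKM, a log2 fold change of -0.55 (standard error 0.055, adjusted p = 8.56e-06), and no library of either treatment entered the range of the other. *SYT5*, a further calcium-binding synaptotagmin, overlapped between treatments at 0.753 to 0.885 FPKM with PBS and 0.825 to 1.19 FPKM with PP and was not called (adjusted p = 0.122), although it was called higher without PP replicate 3 (adjusted p = 0.0223). *SYT11* had 3 to 20 counts per library and its ranges overlapped as well.

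Across the synaptotagmin family the make-up shifted while the sum did not separate the treatments. The families were put together after the values had been seen and are described without a test. The 15 synaptotagmins with a row summed to 47.9 ± 1.16 FPKM with PBS and 48.0 ± 1.43 FPKM with PP (SD, n = 3). Within that sum the share of *SYT4* went from 17.98% to 39.3% and that of *SYT1* from 21.2% to 29.7%. The shares of *SYT13*, *SYT17* and *SYT7* went from 25.7% to 11.9%, from 18.3% to 7.44% and from 13.7% to 8.71%. *SYT13* and *SYT17*, relatives that were not among the 47 genes, had log2 fold changes of -0.99 (standard error 0.065, adjusted p = 3.76e-07) and -1.10 (standard error 0.060, adjusted p = 1.01e-07). In each of these 5 genes the share of every PP library lay outside the range of the PBS libraries.

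Proteins of the vesicle membrane were the role with most calls in 1 direction. Of the 6 tested genes 5 were lower (34.4% over all genes) and 1 was higher (38.1% over all genes). The summed FPKM of the role went from 110 to 116 with PBS down to 85.1 to 92.6 with PP. *SYP* encodes synaptophysin, the vesicle protein used to stain neuroendocrine tumours. It stood at 29.5, 30.8 and 32.4 FPKM with PBS and at 27.0, 26.8 and 24.7 FPKM with PP. The treatments did not overlap, yet the drop was small, with a log2 fold change of -0.23 (standard error 0.049, adjusted p = 0.00161). *SYNGR1*, a synaptogyrin of brain synaptic vesicles, had 3.74, 4.20 and 3.98 FPKM with PBS and 1.56, 2.02 and 1.68 FPKM with PP, which is 0.441 of the PBS mean. At -0.86 (standard error 0.077, adjusted p = 3.64e-06) it had the lowest log2 fold change of this role. *SYNGR2*, the synaptogyrin of most other cells, fell from 43.2 ± 1.44 to 32.1 ± 2.22 FPKM (SD, n = 3), with a log2 fold change of -0.42 (adjusted p = 4.06e-05). *SV2A* and *SV2B* are transporter-like vesicle glycoproteins. The former fell from 22.3 ± 0.493 to 17.9 ± 0.446 FPKM (log2 fold change -0.30, adjusted p = 8.00e-05) and the latter from 5.74 ± 0.268 to 4.10 ± 0.0914 FPKM (log2 fold change -0.40, adjusted p = 8.65e-05). *SYNGR3* differed from them. It read 6.68, 7.17 and 6.35 FPKM with PBS and 7.59, 7.74 and 7.24 FPKM with PP, a log2 fold change of 0.14 (adjusted p = 0.0436). That call was lost without PBS replicate 1 (adjusted p = 0.0907), PBS replicate 3 (adjusted p = 0.160), PP replicate 1 (adjusted p = 0.0917) or PP replicate 2 (adjusted p = 0.126), and also with limma-voom on the recovered counts (adjusted p = 0.139), with median-ratio scaling (adjusted p = 0.0778) and with no filter on low values (adjusted p = 0.0688).

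The synapsins tie vesicles to the cytoskeleton and to each other. *SYN1* had 8.58, 8.60 and 8.47 FPKM with PBS and 9.13, 8.98 and 9.43 FPKM with PP. The libraries did not overlap, but the log2 fold change of 0.09 (95% confidence interval -0.01 to 0.19) was not called (adjusted p = 0.0950), but was called higher with every library scaled to the same total FPKM (adjusted p = 0.0232). *SYN3* was at 1.08, 1.14 and 1.08 FPKM with PBS, from 354 to 358 counts, and at 0.362, 0.349 and 0.244 FPKM with PP, from 85 to 118 counts. Its ratio of 0.290 was the lowest of all tested genes of the machinery, and a log2 fold change of -0.67 was fitted with a pseudocount of 1 (standard error 0.063, adjusted p = 1.12e-05 in the second fit) and -1.53 with a pseudocount of 0.1.

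Among the SNAREs, 2 of 7 genes were higher (38.1% over all genes), 3 were lower (34.4% over all genes) and 2 were not called. The summed FPKM was 126 to 134 with PBS and 139 to 140 with PP. *VAMP2*, the vesicle SNARE of nerve terminals and endocrine granules, rose from 23.0, 20.5 and 20.1 FPKM to 29.4, 31.4 and 29.4 FPKM. That gave a log2 fold change of 0.49 (standard error 0.055, adjusted p = 2.01e-05), and *VAMP2* went from the 12th to the 4th highest FPKM of the 46 genes. *STX3*, a syntaxin of epithelial surfaces and of granule release, was at 20.9, 20.9 and 20.8 FPKM with PBS and at 30.5, 29.4 and 28.9 FPKM with PP. It rose by a log2 fold change of 0.49 (standard error 0.039, adjusted p = 1.48e-06). *STX1A*, the syntaxin of the nerve plasma membrane, was slightly lower with PP, at 20.5 ± 0.436 FPKM against 22.6 ± 0.808 FPKM (SD, n = 3, log2 fold change -0.13, adjusted p = 0.0183), and lost its call without PBS replicate 2 (adjusted p = 0.0817) or PP replicate 2 (adjusted p = 0.0664) and with every library scaled to the same total FPKM (adjusted p = 0.116). *VAMP1*, a close relative of *VAMP2*, fell to 0.667 of its PBS mean of 3.72 ± 0.395 FPKM (SD, n = 3), with a log2 fold change of -0.44 (adjusted p = 0.000385). *VAMP3*, or cellubrevin, which serves membrane traffic in most cells, fell from 33.1 ± 2.74 to 28.9 ± 0.941 FPKM, with a log2 fold change of -0.19 (adjusted p = 0.0125), and lost its call with equal total FPKM (adjusted p = 0.0507). *SNAP25*, the partner of syntaxin in nerve and endocrine cells, showed no difference that these libraries could resolve. Its values were 22.2, 22.8 and 23.2 FPKM with PBS and 22.6, 22.4 and 23.9 FPKM with PP, and the 95% confidence interval of the log2 fold change ran from -0.08 to 0.11 (adjusted p = 0.764). *SNAP23*, its counterpart in most cells, had a log2 fold change of -0.12 (95% confidence interval -0.25 to 0.01, adjusted p = 0.0975) and was called lower without PBS replicate 1 (adjusted p = 0.0313).

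The proteins that steer and recycle SNAREs were split. Of 8 genes 1 was higher (38.1% over all genes), 3 were lower (34.4% over all genes) and 4 were not called. *CPLX2*, a complexin that clamps and then speeds SNARE-driven fusion, changed most. It stood at 26.2, 26.6 and 26.5 FPKM with PBS and at 12.1, 12.8 and 12.4 FPKM with PP, with 4542 to 4823 counts per PBS library and 2163 to 2369 per PP library. A log2 fold change of -1.03 was found (standard error 0.040, adjusted p = 8.37e-09), which lay between -1.05 and -1.01 with each library left out, and the gene moved from the 7th to the 21st highest FPKM of the 46. *CPLX1*, the other complexin with a sizeable level, was at 7.65, 7.56 and 6.74 FPKM with PBS and at 8.57, 7.89 and 7.60 FPKM with PP, and was not called (95% confidence interval of the log2 fold change -0.02 to 0.26, adjusted p = 0.118), though it was called higher with equal total FPKM (adjusted p = 0.0366). The complexin sum thus went from 33.8 ± 0.448 to 20.5 ± 0.464 FPKM (SD, n = 3), and the share of *CPLX1* in it from 21.6% to 39.0%. *DNAJC5*, the vesicle chaperone CSP, fell to 0.822 of its PBS mean (log2 fold change -0.27, adjusted p = 0.00235). *NSF*, the ATPase that pulls spent SNARE complexes apart, fell to 0.826 (log2 fold change -0.26, adjusted p = 0.00494), which is uncertain because a near-identical pseudogene copy may share its reads. Its adaptors differed from each other: *NAPB*, the nerve form, rose from 17.9 ± 0.705 to 21.8 ± 1.19 FPKM (log2 fold change 0.27, adjusted p = 0.000673), while *NAPA*, the general form, had a 95% confidence interval of -0.07 to 0.10 (adjusted p = 0.704). *STXBP2*, a MUNC18 protein of blood and epithelial cells and the gene of highest FPKM here, was at 47.8, 48.8 and 48.6 FPKM with PBS and at 48.8, 48.3 and 48.0 FPKM with PP (95% confidence interval of the log2 fold change -0.07 to 0.07, adjusted p = 0.983). *STXBP5*, or tomosyn, which blocks SNARE assembly, had a log2 fold change of 0.13 (adjusted p = 0.105) and was called higher without PP replicate 1 (adjusted p = 0.0361), with equal total FPKM (adjusted p = 0.0422) and with limma-voom (adjusted p = 0.0350).

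The RAB GTPases and the effector *RPH3AL* held the lowest median of the roles with more than 1 tested gene, a log2 fold change of -0.78 over 5 genes. Their summed FPKM went from 55.8 to 62.1 with PBS to 39.9 to 40.5 with PP. *RAB3B*, the RAB3 form with the highest level in these cells, stood at 28.2, 30.4 and 29.5 FPKM with PBS and at 14.7, 14.6 and 14.7 FPKM with PP. With 11486 to 12097 and 5790 to 6312 counts behind these values, *RAB3B* had a log2 fold change of -0.96 (standard error 0.042, adjusted p = 1.87e-08). *RAB3D*, the form of exocrine and endocrine granules, had 6.30, 7.35 and 6.45 FPKM with PBS and 3.97, 3.60 and 2.90 FPKM with PP (log2 fold change -0.78, standard error 0.091, adjusted p = 2.46e-05). *RAB3C* fell from 1.23 ± 0.0651 to 0.656 ± 0.0946 FPKM (SD, n = 3, log2 fold change -0.43, adjusted p = 0.000315 in the second fit). *RAB3A*, the main form at synapses, was the gene whose libraries disagreed. Its FPKM was 5.85, 6.42 and 3.83 with PBS and 4.08, 4.36 and 3.84 with PP, so PBS replicate 3 lay at the bottom of the PP values. The log2 fold change of -0.30 carried the largest standard error of the 38 genes, 0.133, and was not called (adjusted p = 0.0653), whereas without PBS replicate 3 it was -0.49 (adjusted p = 0.000238). All RAB3 genes together came to 42.7 ± 2.41 FPKM with PBS and 22.9 ± 0.663 FPKM with PP (SD, n = 3), a ratio of 0.536.

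The RAB27 group did not follow. *RAB27A*, which docks secretory granules and exosome-bearing bodies, rose from 9.18, 8.83 and 7.70 FPKM to 13.2, 14.3 and 14.7 FPKM, with a log2 fold change of 0.65 (standard error 0.066, adjusted p = 8.78e-06). It had the next highest log2 fold change after *SYT4*. *RAB27B* was low, at 0.571 to 0.658 FPKM with PBS and 0.365 to 0.508 FPKM with PP, and its call as lower (log2 fold change -0.18, adjusted p = 0.0324 in the second fit) was lost without PBS replicate 1 (adjusted p = 0.0816), PBS replicate 3 (adjusted p = 0.0858), PP replicate 1 (adjusted p = 0.108) or PP replicate 3 (adjusted p = 0.0682). *RPH3AL*, or Noc2, binds RAB3 and RAB27 on hormone granules. It read 6.28, 7.29 and 6.53 FPKM with PBS and 2.91, 2.68 and 2.77 FPKM with PP, which is 0.416 of the PBS mean, with a log2 fold change of -1.02 (standard error 0.065, adjusted p = 2.73e-07). Without PBS replicate 2 its log2 fold change was the one at -0.97, and *CPLX2* alone then passed the stricter cutoff downward.

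At the active zone, scaffolds and priming factors went in different directions. Of 8 genes 2 were higher (38.1% over all genes), 2 were lower (34.4% over all genes) and 4 were not called. The summed FPKM overlapped at 81.6 to 85.0 with PBS and 81.9 to 86.0 with PP. *RIMS2*, a RIM scaffold that tethers vesicles through RAB3 in endocrine cells, was at 11.0, 11.0 and 10.2 FPKM with PBS and at 16.3, 15.6 and 16.7 FPKM with PP. It rose by a log2 fold change of 0.55 (standard error 0.049, adjusted p = 3.39e-06). *RIMS3*, a short relative that lacks the RAB3-binding part, rose from 4.82 ± 0.209 to 6.94 ± 0.170 FPKM (SD, n = 3, log2 fold change 0.45, adjusted p = 2.91e-05). *RIMS1* was barely present, with 73 to 113 counts per PBS library and 29 to 32 per PP library. It was lower in the second fit (log2 fold change -0.19, adjusted p = 0.0179) but not without PBS replicate 1 (adjusted p = 0.0545). *RIMS4*, not among the 47 genes, fell from 8.17 ± 0.667 to 5.81 ± 0.125 FPKM (log2 fold change -0.43, adjusted p = 0.000120), so the RIMS sum of 23.9 ± 0.706 and 29.0 ± 0.741 FPKM hid changes in both directions.

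Of the priming factors, *CADPS* and *UNC13B* fell and their paralogues were not called. *CADPS*, or CAPS1, which primes dense-core granules, was at 4.04, 3.95 and 4.15 FPKM with PBS and at 2.21, 1.73 and 1.92 FPKM with PP (log2 fold change -0.77, standard error 0.072, adjusted p = 4.45e-06). *UNC13B*, or MUNC13-2, had 5.46, 5.40 and 5.40 FPKM with PBS and 3.50, 3.31 and 3.14 FPKM with PP (log2 fold change -0.57, standard error 0.057, adjusted p = 7.34e-06). Neither gene showed any overlap between treatments. *CADPS2* had a log2 fold change of -0.10 (95% confidence interval -0.21 to 0.01, adjusted p = 0.0891) and was called lower without PP replicate 3 (adjusted p = 0.0256) and with median-ratio scaling (adjusted p = 0.0443). For *UNC13A*, or MUNC13-1, the priming factor of most synapses, the 95% confidence interval ran from -0.17 to 0.03 (adjusted p = 0.168). The giant scaffolds Bassoon and Piccolo were also not called: *BSN* had an interval of -0.18 to 0.06 (adjusted p = 0.342) and *PCLO* one of -0.11 to 0.08 (adjusted p = 0.719), the latter with 13280 to 15185 counts per library.

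Pairs of paralogues were compared within each library, so that a factor common to both genes largely cancels. Because 1 was added to each FPKM, it cancels only in part where a gene is low. In most of the 13 pairs the numerator is the form that nerve or endocrine cells use and the denominator the form found in most cells. In 7 pairs the log2 ratios of all PP libraries exceeded those of all PBS libraries, in 5 they lay under them, and the ranges overlapped for *SYP* to *SYPL1* (difference -0.17). Taken singly, 75.0% of all genes tested did not overlap between treatments, and no such share was computed for other gene pairs. The exact two-sided permutation test gave p = 0.3 for that pair and, for the other 12, p = 0.1, the smallest that 3 against 3 libraries allow, or 0.108 after adjustment over the 13 pairs, so no pair could pass 0.05. The pairs did not share a direction. *VAMP2* to *VAMP3* went from -0.62 ± 0.014 to 0.06 ± 0.084 (SD, n = 3), a difference of 0.67, while *STX1A* to *STX3* went from 0.11 ± 0.048 to -0.51 ± 0.036, a difference of -0.62. With PP, *VAMP2* had drawn level with *VAMP3*, and *STX1A* lay below *STX3*. The second shift came mostly from *STX3*, which rose by a log2 fold change of 0.49, against -0.13 for *STX1A*. The difference of the log2 ratio was -0.67 for *CADPS* to *CADPS2*, -0.84 for *RAB27B* to *RAB27A*, -0.44 for *SYNGR1* to *SYNGR2* and -0.25 for *VAMP1* to *VAMP3*. On the other side it was 0.56 for *SYNGR3* to *SYNGR2*, 0.50 for *UNC13A* to *UNC13B*, 0.48 for *RAB3A* to *RAB3D*, 0.25 for *NAPB* to *NAPA* and 0.13 for *SNAP25* to *SNAP23*. The greatest difference on this scale was that of the sensors *SYT1* to *SYT7*, 0.998, from 0.56 ± 0.049 with PBS to 1.56 ± 0.140 with PP. The ranking depended on the pseudocount of 1. With a pseudocount of 0.1 the difference was 1.12 for *SYT1* to *SYT7* and larger in size, at -1.16, for *RAB27B* to *RAB27A*.

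Genes around the 47 were taken from lists, whose counts are to be read against the 38.1% of all genes that were called higher and the 34.4% called lower. Of 28 other tested paralogues and partners of the machinery, 7 were higher and 16 lower, with a median log2 fold change of -0.23. *VAMP8*, the vesicle SNARE of exocrine and blood cells, fell from 103 ± 2.47 to 53.5 ± 0.681 FPKM (SD, n = 3, log2 fold change -0.93, adjusted p = 4.71e-09), so that the VAMP sum went from 165 to 122 FPKM although *VAMP2* rose. *SYTL1*, a RAB27 effector, rose (log2 fold change 0.69, adjusted p = 8.54e-07), as did the endosomal SNAREs *VAMP4* (0.58, adjusted p = 2.03e-05) and *STX12* (0.37, adjusted p = 3.32e-05). Of 22 tested genes of the RAB cycle and the active zone, 7 were higher and 14 lower, with a median of -0.18. The 3 genes with the highest log2 fold change in that list are all described as regulators of RAB3. Such genes did not share a direction. *RAB3IP* and *MADD*, which also act in the RAB cycle, had log2 fold changes of -0.18 (adjusted p = 0.0127) and -0.17 (adjusted p = 0.00661), and were named after their values were seen. *RAB3IL1*, an exchange factor, rose from 5.38 ± 0.369 to 14.1 ± 0.545 FPKM (log2 fold change 1.25, adjusted p = 2.62e-08), and *RAB3GAP1* and *RAB3GAP2*, subunits of the complex that ends the active state, rose by log2 fold changes of 0.76 (adjusted p = 2.12e-07) and 0.55 (adjusted p = 2.21e-06). *PPFIA4* and *CASK*, scaffold proteins of the active zone, fell by log2 fold changes of -0.46 (adjusted p = 2.82e-05) and -0.42 (adjusted p = 1.19e-05). In the second fit *RAB26*, a RAB of secretory granules, fell from 0.604 ± 0.105 to 0.0371 ± 0.0195 FPKM (log2 fold change -0.63, adjusted p = 2.79e-05), and it was named after its values were seen.

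Subunits of the voltage-gated calcium channels, which let in the calcium that triggers release, were counted next. Of 9 tested genes 7 were lower (34.4% over all genes), 1 was higher (38.1% over all genes) and 1 was not called, and the median log2 fold change was -0.39. *CACNA1E*, the pore of the R-type channel, fell from 4.74 ± 0.295 to 1.37 ± 0.0886 FPKM (SD, n = 3, log2 fold change -1.28, adjusted p = 6.40e-08). The pore gene with the highest FPKM, *CACNA1B*, was the gene not called, at 6.59 ± 0.0701 FPKM with PBS and 7.05 ± 0.186 FPKM with PP (log2 fold change 0.08, adjusted p = 0.142). The pore genes *CACNA1D* (-0.34, adjusted p = 0.000915) and *CACNA1I* (-0.31, adjusted p = 0.00461) were lower. These pore genes besides *CACNA1E* were named after their values were seen. The auxiliary subunits *CACNA2D3* and *CACNA2D2* fell by log2 fold changes of -1.27 (adjusted p = 2.51e-08) and -0.79 (adjusted p = 1.84e-06). *CACNB1* was the gene that rose, from 1.55 ± 0.192 to 2.16 ± 0.158 FPKM (log2 fold change 0.31, adjusted p = 0.00426). The summed FPKM of the 16 subunits with a row was 41.6 to 42.3 with PBS and 26.8 to 27.6 with PP.

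Markers of cell type moved too. Of 15 neuroendocrine markers, 12 were tested, 2 were higher (38.1% over all genes) and 7 lower (34.4% over all genes), with a median log2 fold change of -0.23. Among the 7 lower markers, *PCSK2*, a granule protease, and *DDC*, an enzyme of amine synthesis, had log2 fold changes of -1.93 (adjusted p = 1.45e-09) and -1.70 (adjusted p = 9.78e-08). The 2 higher ones were *SCG2*, a granule protein (0.66, adjusted p = 1.03e-05), and the factor *INSM1* (0.21, adjusted p = 0.00679). In the second fit the factor *FOXA2*, with a mean of only 0.599 FPKM, was also higher (0.54, adjusted p = 0.000720). *SCG5* was listed at 0 in 5 libraries. Of 9 luminal prostate markers with a row, 6 were under 1 FPKM in every library and the sum was 9.98 to 10.8 FPKM with PBS and 11.8 to 12.5 FPKM with PP. They went both ways: *FKBP5* (log2 fold change 0.24, adjusted p = 0.00149) and *STEAP2* (0.60, adjusted p = 5.34e-05) were higher, and *TMPRSS2* (-0.47, adjusted p = 0.00290) and *SLC45A3* (-0.24, adjusted p = 0.0307) were lower in the second fit. Of 8 fibroblast markers 6 were under 1 FPKM in every library, and the sum was 4.97 to 5.14 FPKM against 5.35 to 6.12 FPKM, with *COL1A1* higher (0.26, adjusted p = 0.00200) and *COL1A2* lower in the second fit (-0.33, adjusted p = 0.0164). The markers of the second fit were named after their values were seen. Of 8 immune markers 6 were under 1 FPKM, the sums overlapped at 2.77 to 3.47 and 2.17 to 3.05 FPKM, and *CD3E*, *MS4A1* and *NKG7* were listed at 0 in 5 libraries each. The part of these markers in the exocytosis genes was not tested.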

How the data were processed

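Libraries of NCI-H660 cells given PBS (3) or PP (3) were analysed from 1 table of FPKM values by gene symbol that the authors deposited. The labels name TruSeq stranded libraries, a HiSeq X series sequencer, fastp, HISAT2, HTSeq and GRCh38, whereas the methods name HiSeq2000, Bowtie, hg19 and RSEM, Cufflinks or HTSeq with fewer samples per group, so the steps behind these values are uncertain. Whether strand was used in counting was not given in the sources used here.

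Groups came from the sample labels. Counts were recovered from the FPKM steps (tolerance 0.01 of a count), with totals of 29064154 to 32481049 per library, which limit the precision of low genes. The linear model of limma 3.58.1 in R 4.3.3 (lmFit, eBayes with an intensity trend) was fitted to log2(FPKM + 1) for genes whose mean FPKM reached 1, or 0.1 for low genes, two-sided, with Benjamini-Hochberg adjustment. The steps were checked on simulated data. Sums, pairs and figures used Python 3.11.15. Every one of the exocytosis genes could be named, and of each other list up to 3 called genes of the first fit with the highest and 3 with the lowest log2 fold change, besides both genes of a pair. The genes and lists were chosen with earlier results of these data known. In 7 genes (*NAPA*, *RAB3D*, *SNAP23*, *STXBP2*, *SYN1*, *VAMP1* and *VAMP2*) at least 10% of exon bases are shared with another annotated gene (GENCODE on hg19), so their values are uncertain. Alternatives varied the pseudocount, filter, scaling, eBayes settings, replicate block, libraries included and the use of limma-voom on recovered counts. Results for a few genes are not reported here.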

Additional observations from a re-analysis of the deposited data

How the results depend on the processing

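Of the 43 tested exocytosis genes, 27 kept direction and call under every alternative run for them. The counts of higher and lower genes were 9 and 17; they were 12 and 15 with every library scaled to the same total FPKM, 8 and 18 with median-ratio scaling and 9 and 17 with limma-voom, while 11 were lower when only genes whose mean FPKM reached 5 were kept, so that fewer genes were tested. Past the stricter cutoff 2 were lower; with a pseudocount of 0.1 there were 4, with a mean FPKM filter of 5 there was 1, with equal total FPKM 0, and with limma-voom 5. Over all genes 344 were lower past it, but 531 with a pseudocount of 0.1 and 559 with limma-voom, and 263 were higher, but 397 with limma-voom. For these shifts the cause was not tested. Leaving out 1 library gave 8 to 9 higher and 16 to 18 lower genes, and 1 to 2 lower past the cutoff, with 1 without PBS replicate 2. Signs turned only in genes that were never called, in log2 fold changes close to 0. With median-ratio scaling *SNAP25* was at -0.0077 and *NAPA* at -0.0059, and with equal total FPKM *STXBP2* was at 0.049 and *PCLO* at 0.031. With each library left out in turn *SNAP25* ran from -0.013 to 0.032, *STXBP2* from -0.0099 to 0.0048 and *NAPA* from -0.0018 to 0.039. In a fit with a block for the replicate number, the exocytosis genes had 8 higher and 18 lower; *SYNGR3* (adjusted p = 0.0523) and *RAB27B* (adjusted p = 0.0614) lost their calls and *RAB3A* gained one (adjusted p = 0.0220). The deviations of same-numbered libraries correlated at -0.21, -0.01 and -0.13, so the values showed no shared effect of the number. Such correlations cannot tell whether same-numbered cultures were handled together. Counting depth limits *SYT11*, *SYN2* and *SLC18A1* most.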

Other observations

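Other groups of genes around exocytosis were measured. The exocyst is the complex that tethers vesicles to the plasma membrane before SNAREs engage. All of its 10 genes were tested, of which 4 were higher (38.1% over all genes), 5 were lower (34.4% over all genes) and 1 was not called, with a median log2 fold change of -0.10. *EXOC4*, *EXOC3* and *EXOC7* fell by log2 fold changes of -0.70 (adjusted p = 2.33e-06), -0.54 (adjusted p = 1.99e-06) and -0.39 (adjusted p = 8.77e-05), and *EXOC1*, *EXOC8* and *EXOC6* rose by 0.43 (adjusted p = 7.06e-06), 0.43 (adjusted p = 3.30e-05) and 0.39 (adjusted p = 0.000318).

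Genes that retrieve the vesicle membrane by endocytosis were also counted. Of 25 tested genes 10 were higher (38.1% over all genes), 12 were lower (34.4% over all genes) and 3 were not called. *DNM1*, the dynamin that pinches off vesicles in nerve cells, fell from 69.7 ± 2.07 to 44.8 ± 1.01 FPKM (SD, n = 3, log2 fold change -0.63, adjusted p = 1.65e-07). The minor clathrin heavy chain *CLTCL1*, at 2.87 ± 0.158 FPKM with PBS, and the adaptor subunit *AP2S1* fell by log2 fold changes of -0.83 (adjusted p = 5.03e-06) and -0.68 (adjusted p = 2.04e-06). The main clathrin heavy chain *CLTC* rose from 63.1 ± 1.35 to 69.2 ± 1.202 FPKM (log2 fold change 0.13, adjusted p = 0.00544), and among genes with a mean FPKM under 1 *AMPH*, or amphiphysin, fell from 1.53 ± 0.0977 to 0.255 ± 0.00396 FPKM (log2 fold change -1.01, adjusted p = 5.46e-07 in the second fit). *CLTC* and *AMPH* were named after their values were seen. *SNAP91*, the nerve clathrin assembly protein AP180, rose from 0.783 ± 0.0620 to 1.99 ± 0.218 FPKM (log2 fold change 0.75, adjusted p = 1.07e-05), and the adaptor *STON2* (0.44, adjusted p = 5.57e-05) and the clathrin light chain *CLTB* (0.37, adjusted p = 1.88e-05) were higher as well.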
